A study of Mus musculus with 8 samples.

Results

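The TRAV12 family comprises the mouse T cell receptor alpha (TRA) chains built with a variable gene named TRAV12, TRAV12D or TRAV12N. Its members were the cell barcodes without a multiplet mark whose first TRA chain carried a gene call of 1 of these names, and the call itself was the only value used to choose them. Of 107882 TRA-bearing barcodes in 14 tables, 15300 met this rule, or 14.2%. Among them, 9677 also carried a T cell receptor beta (TRB) chain and so formed a paired cell, out of 66914 paired cells in all. Counted once per table, they amounted to 9553 distinct TRA chains (V gene, J gene and complementarity-determining region 3, CDR3) and 7397 paired clonotypes, a clonotype being defined by the amino acid sequences of both CDR3s.

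The study sequenced the receptors of single mouse CD8+ T cells with the Parse Evercode TCR method, which marks each cell by successive rounds of well barcodes. It covered Pdcd1fl/fl control mice and Pdcd1 cKO mice, in which CD8 E8I-Cre deletes Pdcd1, the gene of the inhibitory receptor PD-1, in CD8+ cells after positive selection. Both carry floxed Pdcd1 on a C57BL/6 background. Thymus and spleen were taken at baseline, and thymus and tumor from mice bearing B16-OVA or B16-F10 melanoma. Thymic and splenic cells were isolated with CD8a+ kits, a naive CD8a+ kit also being named for spleen, and tumor-infiltrating cells with CD8 (TIL) microbeads. The labels describe 8 multiplexed sublibraries and give neither genotype, age, tumor model nor tissue for any table. Animal and tissue were therefore read from the names of the tables alone, which gave 7 thymus tables, 2 spleen tables and 5 tumor tables from 7 animals, and no control and knockout groups were compared.

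Each table was 1 pool of cells without a replicate, and as the labels put no table in a group, values are described without a test between tissues. Shares are given with exact 95% binomial intervals, which cover counting error only, because PCR copies and cells of a clone are not independent draws. Depth ranged from 2523 to 20511 TRA-bearing barcodes and from 359 to 3376 family members per table. The family made up 13.7% to 14.8% of TRA chains in each of the 8 sublibraries. No full barcode occurred in more than 1 table. However, 11.4% of family barcodes and 10.99% of all others shared their TRA chain, the later plate barcodes (rounds 2 and 3) and sublibrary with another barcode, either within a table or across tables. This share was highest in the mouse-160C tumor table, at 22.8% of family barcodes, and in the mouse-155C thymus table, at 21.7%. Results are given with these recurring barcodes left out wherever that moved them.

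An alpha chain is assembled in CD4+CD8+ thymocytes by joining a TRAV gene to a TRAJ gene. The CDR1 and CDR2 loops come from the TRAV gene itself, whereas CDR3 spans the joint and is further varied by trimming and by added bases. Rearrangement can repeat on the same allele, using TRAV genes farther upstream and TRAJ genes farther downstream each time, and TRAJ genes are numbered so that high numbers lie at the 5′ end of their cluster. TRAV12 is the group long known as Vα8, and in C57BL/6 mice part of the TRAV locus is duplicated, which gave the D and N copies.

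In the GRCm39 genome, 10 Trav12 genes lie on the forward strand of chromosome 14. The D copies are the farthest from the Traj cluster, with Trav12d-1 at chr14:53081922-53082498 and 1310 kb from the first Traj gene. Trav12n-1 lies at chr14:53392969-53393545, at 998.9 kb. Trav12-1, at chr14:53775648-53776195, and Trav12-2, at chr14:53853772-53854371, are closer, at 616.3 and 538.1 kb. Trav12-4, at chr14:54016060-54016330, is annotated as a pseudogene and is the nearest, at 376.1 kb.

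The reads covered little of these genes: of 22461 annotated family chains, 99.9% reached at most 70 bases upstream of the CDR3 and the median was 56 bases. The germline sequence of that stretch is shown because it decides which members the gene calls can tell apart. Each sequence holds the last 56 bases before the CDR3 followed by the V-encoded start of the CDR3, and capitals mark bases that differ from Trav12-1.
Trav12-1, Trav12-3, Trav12d-3 and Trav12n-3: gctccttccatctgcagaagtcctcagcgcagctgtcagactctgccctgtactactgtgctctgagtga
Trav12-2: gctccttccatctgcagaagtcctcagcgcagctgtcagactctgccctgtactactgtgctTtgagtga
Trav12d-1 and Trav12n-1: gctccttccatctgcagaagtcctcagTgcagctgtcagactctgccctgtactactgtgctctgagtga
Trav12d-2 and Trav12n-2: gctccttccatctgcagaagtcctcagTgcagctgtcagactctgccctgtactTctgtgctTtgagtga
Trav12-4: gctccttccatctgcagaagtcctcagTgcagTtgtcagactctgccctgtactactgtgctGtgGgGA

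Trav12-1 and Trav12-2 differed in this window by a single substitution, C63T, where positions count from 1 at the first base shown and the CDR3 starts at position 57. Farther upstream they are easily distinguished, with 67 mismatches over 250 bases. Trav12-3, Trav12d-3 and Trav12n-3 have the same letters as Trav12-1 throughout the window, so chains called TRAV12-1_1 may come from any of these 4 genes. The D and N copies of each gene had 0 mismatches over 250 bases, and chains called TRAV12D may come from either copy. Position 63 carried the Trav12-2 base in 99.4% of 4983 annotated TRAV12-2 chains. In TRAV12-1_1 it carried the Trav12-1 base in 78.4% of 16320 chains, and the remaining 21.6% matched neither germline gene over the first 7 bases of the CDR3. By distinct nucleotide chains that remainder was 8.48%, and such chains are assigned to TRAV12-1_1 rather than TRAV12-2 without a full match to either gene over those bases.

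TRAV12 was among the most used alpha families in the thymus. It made up 12.1%, 13.1% and 14.2% of TRA-bearing barcodes at the lowest, median and highest of the 7 thymus tables. It ranked between 1 and 3 among 20 TRAV families there, next to TRAV14 with a median of 12.9%. The 7 thymus tables lay close together, whereas the spleen and tumor tables spread widely.

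In spleen the family reached 14.9% (95% interval 14.03 to 15.9) in mouse-155A and 14.1% in mouse-155C. Among the tumors, mouse-160A had 15.3% (14.01 to 16.7), mouse-160B 14.1% and mouse-160C 6.83% (6.24 to 7.45). The family made up 19.5% (18.7 to 20.3) in the mouse-164B tumor and 16.5% (15.9 to 17.0) in the mouse-164C tumor. The mouse-160C tumor was thus the lowest of all 14 tables and the mouse-164B tumor the highest.

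Within an animal, the share in the second tissue was 0.533 times the thymus share in mouse-160C, 1.47 times in mouse-164B and 1.36 times in mouse-164C. The intervals of the tissues were apart in these 3 animals and in mouse-155A, where spleen was 1.16 times thymus, and they overlapped in the other 3 animals. The second tissue was lower in 2 of 7 animals, mouse-155C and mouse-160C, and in 1 when recurring barcodes were left out.

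Counting each distinct chain once removed most of this spread. The family then made up 13.6% to 15.1% of chains in thymus tables (median 14.5%) and 12.7% to 15.7% in spleen and tumor tables (median 14.7%), and the intervals overlapped in all 7 animals. The mouse-160C tumor had 6.83% of barcodes but 12.7% of distinct chains, and the mouse-164B tumor 19.5% and 14.9%. Invariant natural killer T (iNKT)-like cells, marked by a TRAV11 to TRAJ18 chain, moved with the tissue. They were 5.78% to 10.9% of TRA-bearing barcodes in thymus and 0.2% to 1.13% in spleen and tumor. Without them the thymus median of the family was 14.1%, and the second tissue was lower in 4 of 7 animals. Chains typical of mucosal-associated invariant T cells, TRAV1 with TRAJ33, made up at most 0.0117% of a table.

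**Figure D1:**
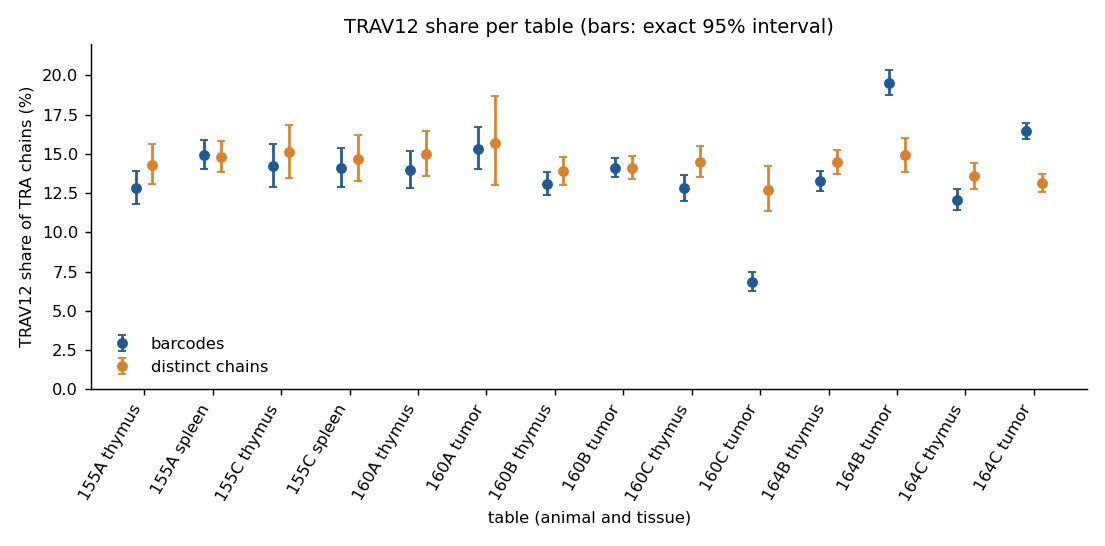
Share of TRA chains (%, vertical axis) that used a TRAV12 gene in each of the 14 tables (horizontal axis, animal and tissue), by barcodes (blue) and by distinct chains (orange), with exact 95% intervals as bars. By barcodes the tables run from 6.83% (mouse-160C tumor) to 19.5% (mouse-164B tumor), by distinct chains from 12.7% to 15.7%.

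TRAV12-1_1 and TRAV12-2 supplied nearly all members. TRAV12-1_1 was called in 11022 barcodes (6107 distinct chains), TRAV12-2 in 3452 (2690), TRAV12D-1_1 in 441 (397) and TRAV12D-2_1 in 367 (344). TRAV12-4 was called in 16 barcodes, 7 of them with TRAJ57, and TRAV12D-3 in 2 barcodes of 1 table. Of 29 annotated TRAV12-4 chains, 15 were in frame, compared with 16169 of 16320 for TRAV12-1_1. No barcode carried a TRAV12N call, which allows a share of up to 0.0196% of the family, although the sequences above cannot separate N from D copies.

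By its median, TRAV12-1_1 was the most used TRAV gene call of the thymus, with 8.05%, 8.91% and 10.4% of TRA-bearing barcodes at the lowest, median and highest table. This call may hold chains of 4 genes, so it does not rank a single gene. It led in 5 of 7 thymus tables, while TRAV11 led in mouse-160A (9.80% against 8.91%) and mouse-160B (11.1% against 9.22%). Over all 14 tables TRAV12-1_1 made up between 57.2% and 85.3% of the family (median 69.9%), and TRAV12-2 between 12.1% and 39.6% (median 23.4%). The extremes were both tumors: TRAV12-1_1 was highest in mouse-160A and lowest in mouse-160C. By distinct chains the composition was steadier, with TRAV12-1_1 at 61.3% to 68.5% and TRAV12-2 at 24.6% to 30.3%.

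**Figure D2:**
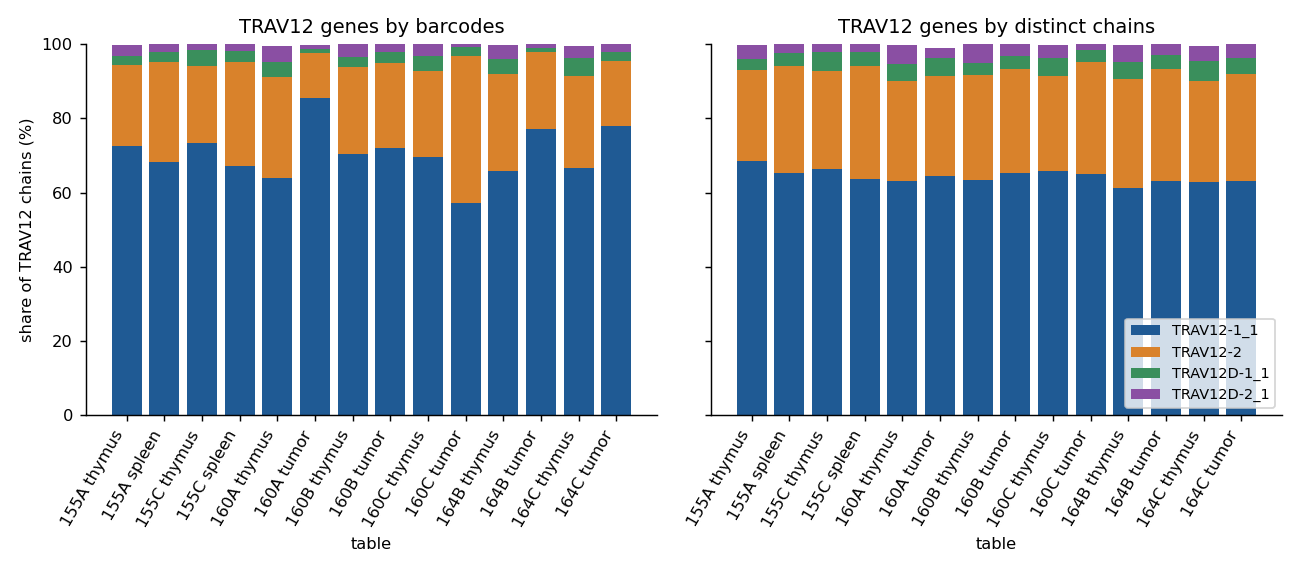
Composition of the TRAV12 family in each table (horizontal axis), as the share of its barcodes (left) and of its distinct chains (right) called to each of the 4 main genes (%, stacked bars). TRAV12-1_1 spans 57.2% to 85.3% by barcodes and 61.3% to 68.5% by distinct chains.

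Gene by gene, TRAV12-1_1 and TRAV12-2 passed the minimum mean share of 0.5% over both tissues in every animal, TRAV12D-1_1 passed it in 1 animal and TRAV12D-2_1 in 0. A change past 1.5-fold between second tissue and thymus was seen for TRAV12-2 in mouse-160A, at 3.80% in thymus and 1.85% in tumor. For TRAV12-1_1 it was seen in mouse-160C, at 8.90% in thymus and 3.91% in tumor. TRAV12-1_1 was also past it in mouse-164B, at 8.73% and 15.1%, and in mouse-164C, at 8.05% and 12.8%. The mouse-164B tumor value includes a large TRAJ45 clone, described below, whose V bases cannot separate Trav12-1 from Trav12-2. Such changes were common to TRAV genes in general. The share of all tested TRAV genes past 1.5-fold was 84.6% in mouse-160A, 64.3% in mouse-160C, 51.1% in mouse-164B and 21.7% in mouse-164C. In mouse-155A, mouse-155C and mouse-160B it was 22.9%, 21.3% and 17.0%, and no TRAV12 gene was past 1.5-fold there.

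By distinct chains neither TRAV12-1_1 nor TRAV12-2 was past 1.5-fold in any animal. TRAV12D-2_1 was lower past 1.5-fold in the tumors of mouse-160A (0.775% in thymus and 0.453% in tumor), mouse-160B (0.692% and 0.442%) and mouse-164B (0.673% and 0.435%), and TRAV12D-1_1 in that of mouse-160C (0.692% and 0.431%). Of all tested TRAV genes, 30.8%, 8.0%, 12% and 16.3% were past 1.5-fold by distinct chains in mouse-160A, mouse-160B, mouse-164B and mouse-160C. Each of these TRAV12D genes had a tumor share below the 0.5% minimum and passed it only through its thymus share. That favors a lower tumor value, so no direction is drawn from these calls. TRAV12D-2_1 in mouse-160C (0.524% and 0.192%) had a mean below the minimum and was not among the tested genes. TRAV12-2 made up 3.53% to 4.21% of distinct chains in thymus (median 3.91%) and 3.80% to 4.49% in the second tissue (median 4.22%). It was higher in the second tissue of 7 of 7 animals, although the intervals overlapped in each. TRAV12D-2_1 ran the other way: 0.334% to 0.775% of distinct chains in thymus (median 0.543%) against 0.192% to 0.476% (median 0.435%), and lower in the second tissue of 6 of 7 animals. Its intervals again overlapped in each animal, with 3 to 59 chains per spleen or tumor table.

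TRAV12 genes differed in the part of the TRAJ cluster they joined. Over distinct chains of a thymus table, the mean TRAJ number of TRAV12-2 was 31.0, 33.6 and 36.2 at the lowest, median and highest table. It was 26.6, 27.9 and 28.8 for TRAV12-1_1 and 22.9, 24.1 and 25.4 for TRAV12D-1_1. For TRAV12D-2_1 it was 18.7, 21.0 and 22.9. TRAV12-2 chains therefore used the most 5′ TRAJ genes and the TRAV12D calls the most 3′ ones, and TRAV12-2 lay above TRAV12-1_1, and TRAV12-1_1 above each TRAV12D gene, in 7 of 7 thymus tables.

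The same held for TRAV12-2 above TRAV12-1_1 in 7 of 7 spleen and tumor tables (33.4 to 35.4 against 26.6 to 28.7), and for TRAV12-1_1 above TRAV12D-2_1 in 5 of 7. The exceptions were the mouse-160A tumor and the mouse-160C tumor, where TRAV12D-2_1 had 3 and 4 distinct chains. Trav12-2 and Trav12-1 lie closer to the Traj cluster than the D and N copies, but TRAV12-1_1 calls may include Trav12d-3 or Trav12n-3. Whether the order of the TRAV12D calls among themselves followed distance cannot be told, since each may come from a D or an N copy. Trav12d-1 lies farther away than Trav12d-2, at 1239 kb, whereas Trav12n-1, at 998.9 kb, lies closer. Among 60 TRAV genes with at least 50 distinct thymus chains, ranked from the lowest mean TRAJ number, TRAV12D-2_1 was at 4, TRAV12D-1_1 at 23, TRAV12-1_1 at 39 and TRAV12-2 at 46. The family as a whole averaged 27.9 to 29.7 and all other chains 28.1 to 29.5, so the differences lay within the family.

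Chains with TRAJ50 or a higher number, the 5′ end of the cluster, were 9.83% of distinct thymus chains of TRAV12-2 and 6.09% of TRAV12-1_1. They were 3.92% of TRAV12D-1_1 and 4.12% of TRAV12D-2_1. At the 3′ end, TRAJ20 and below took 13.7% of TRAV12-2, 29.9% of TRAV12-1_1 and 43.3% of TRAV12D-2_1. By barcodes, the 5′ share of the family had a thymus median of 9.02%, which fell to 6.38% without the pair of chains described below that occurred in every table.

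**Figure D3:**
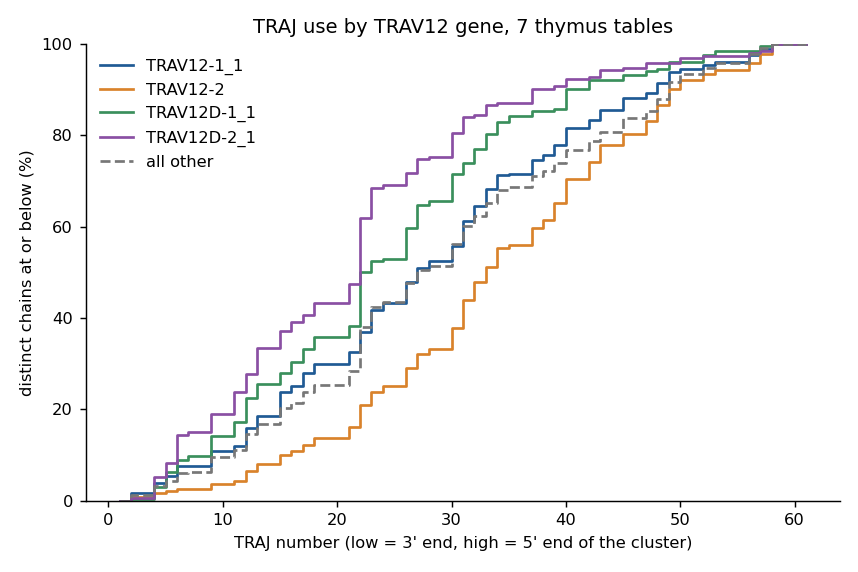
Cumulative share of distinct chains (%, vertical axis) with a TRAJ number at or below the value on the horizontal axis, for the 4 main TRAV12 genes (solid lines) and all other chains (dashed), pooled over the 7 thymus tables. TRAV12-2 (mean 33.6) runs lowest and TRAV12D-2_1 (mean 21.3) highest, on either side of TRAV12-1_1.

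The most used TRAJ partners in thymus by barcodes were TRAJ45 (median 7.29% of the family), TRAJ22 (4.58%), TRAJ31 (4.53%), TRAJ23 (4.34%), and TRAJ15 and TRAJ26 (both 4.21%). The median of TRAJ45 was 2.34% without the 2 chains found in every table, 1 of which used it. Over distinct chains, the ranges of the family and of all other chains over the 7 thymus tables did not overlap for 4 of 39 TRAJ genes, or 10.3%.

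TRAJ22 stood farthest apart. It was joined to 4.50%, 5.26% and 5.85% of distinct family chains at the lowest, median and highest thymus table, against 8.67%, 9.65% and 11.02% of all other chains. In the second tissues it was 3.85% to 5.27% (median 4.22%) against 6.50% to 9.33% (median 7.58%), and it was lower in the family in all 14 tables. TRAJ22 was thus used about as often as other frequent TRAJ genes within the family, but was the leading TRAJ gene outside it.

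The deficit was not shared by all members, in a split by gene chosen after the values were seen. TRAJ22 was joined to 4.42% (3.70 to 5.22) of TRAV12-1_1 and 4.72% (3.61 to 6.04) of TRAV12-2 distinct thymus chains. It was joined to 11.8% (7.68 to 17.0) of TRAV12D-1_1 and 14.4% (9.81 to 20.2) of TRAV12D-2_1 chains. The intervals of the TRAV12D genes lay wholly above those of TRAV12-1_1 and TRAV12-2, on 24 and 28 chains, and included or exceeded the 9.58% of all other chains.

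TRAJ31 and TRAJ32 were higher in the family, with medians of 5.17% (4.49 to 6.52) against 4.13% (3.53 to 4.28) and 3.04% (2.58 to 4.98) against 2.02% (1.58 to 2.33). TRAJ49 was lower, at 2.89% (1.35 to 3.23) against 3.62% (3.28 to 4.37). Here the values in parentheses are the lowest and highest thymus tables. A split of the pooled thymus chains by gene was also chosen after the values were seen. TRAJ49 was at 2.40% of TRAV12-1_1 but 3.52% of TRAV12-2, near the 3.66% of all other chains. TRAJ31 was at 5.65% of TRAV12-1_1 and 6.1% of TRAV12-2. It was at 2.45% of TRAV12D-1_1 and 3.61% of TRAV12D-2_1, not above the 3.95% of all other chains. TRAJ15 separated the main genes from each other, a contrast also chosen after the values were seen. It took 4.63% to 7.22% of TRAV12-1_1 chains and 1.01% to 2.82% of TRAV12-2 chains over the thymus tables, without overlap. In the second tissues the ranges overlapped, at 2.31% to 8.67% and 0% to 3.77%.

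Family CDR3s were slightly short. The mean length over distinct chains was 13.4 to 13.6 residues in thymus tables, against 13.8 to 13.9 for all other chains. In thymus, distinct family chains kept a median of 12 germline V bases of the CDR3 and had a median of 3 junction bases that matched neither gene. The junction held no such base in 11.9% of TRAV12-1_1 chains, 15.4% of TRAV12-2, 21.5% of TRAV12D-1_1 and 10.5% of TRAV12D-2_1.

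TRB partners differed less from those of other cells. TRBV13-2, the Vβ8.2 gene that iNKT cells also favor, was the leading partner in thymus by its median, with 7.36%, 9.36% and 10.1% of paired family cells at the lowest, median and highest table. All other paired cells had 12.6% to 14.7%, and 9.11% to 10.5% once TRAV11 to TRAJ18 cells were left out, so most of that gap went with the iNKT-like cells. It led in 4 of 7 thymus tables, TRBV12-1 leading in mouse-155A (12.7%), TRBV13-1_1 in mouse-155C (11.2%) and TRBV29 in mouse-160A (10.7%). The next partners by median were TRBV13-1_1 (median 7.50%), TRBV12-1 and TRBV29 (both 6.88%) and TRBV13-3 (6.69%). With iNKT-like cells left out of the comparison, 2 of 19 TRBV genes, or 10.5%, had ranges that did not overlap. Counting each paired clonotype once left 1 of 19, or 5.26%, namely TRBV3.

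TRBV26_1, the gene known as Vβ3, was paired with 3.34%, 4.49% and 5.47% of family cells against 2.48%, 3.02% and 3.33% of the others at the lowest, median and highest thymus table. By distinct clonotypes these ranges overlapped, at 3.31% to 5.33% against 2.53% to 3.36%. They also overlapped in the second tissues, at 1.68% to 5.19% of cells against 1.72% to 2.85%. Counted by distinct clonotypes, TRBV26_1 was still higher in the family in 7 of 7 thymus tables and 7 of 7 spleen and tumor tables. TRBV3 was lower, at 1.25%, 5.76% and 6.36% against 6.87%, 7.31% and 7.65%, its low end being the mouse-155C thymus. In the second tissues it overlapped, at 2.35% to 6.99% against 1.59% to 8.29%, and was higher in the family in the mouse-155A spleen and the mouse-160A tumor. TRBV14 was higher in 7 of 7 thymus tables, with medians of 6.37% and 4.59%, but its ranges overlapped. TRBV12-2 was lower by distinct clonotypes in 7 of 7 thymus tables and 7 of 7 spleen and tumor tables, also with overlapping ranges.

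**Figure D4:**
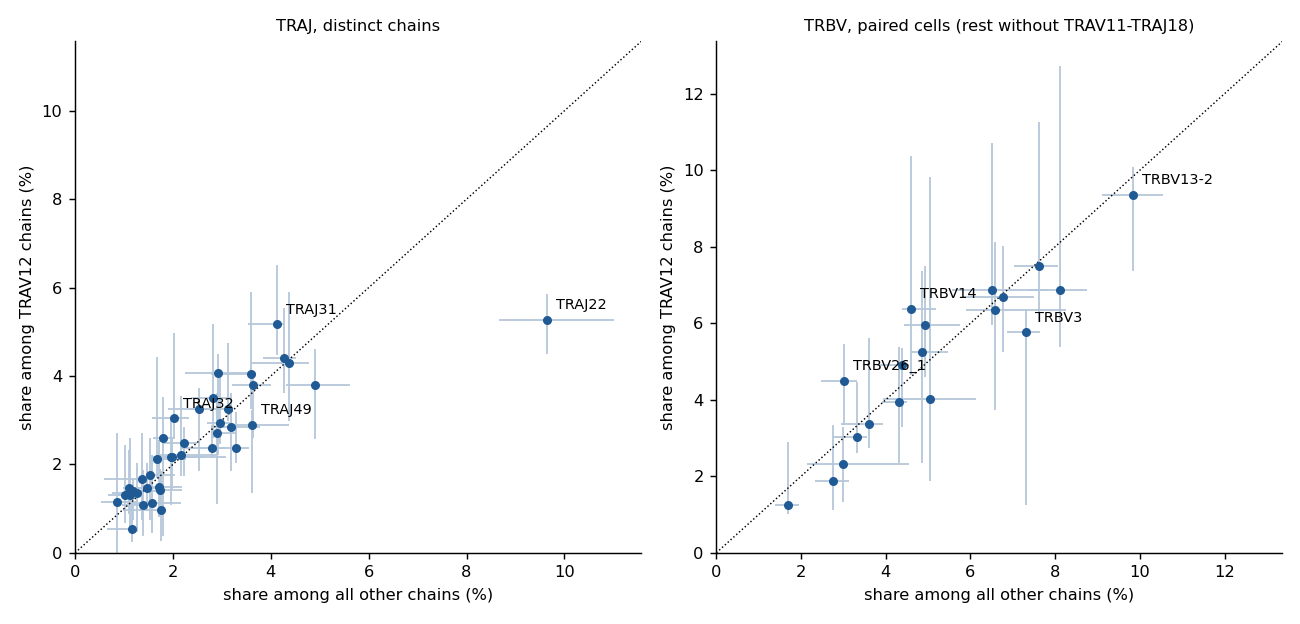
Share of each TRAJ gene among distinct chains (left) and of each TRBV gene among paired cells without TRAV11 to TRAJ18 cells (right), in the TRAV12 family (%, vertical axis) against all other chains (%, horizontal axis). Points are medians and bars the range over the 7 thymus tables, genes with a median of at least 1% in either set are drawn, and the dotted line marks equal shares. TRAJ22 lies far below the line, at 5.26% against 9.65%.

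Single tables showed much larger departures. In the mouse-160A tumor, TRAJ6 and TRAJ13 joined 24.4% and 32.3% of family barcodes, against 0.589% and 1.14% of the others. TRBV29 and TRBV13-3 were the partners of 29.5% and 30.5% of its family cells, against 3.10% and 3.70%. In the mouse-164B tumor TRAJ45 took 36.6% against 1.42%, and in the mouse-164C tumor TRAJ56 took 31.5% against 1.41% and TRBV12-1 38.6% against 8.32%. TRAJ45 also exceeded 3 times its share elsewhere in 4 thymus tables, with 7.29% to 15.6% of the family against 1.58% to 2.76%. So did TRAJ56 in the mouse-160A and mouse-160B tumors (11.2% and 6.31%, against 1.01% and 1.502%) and TRAJ13 in the mouse-164B tumor (6.04% against 1.40%). Without the 2 chains found in every table, TRAJ45 made up at most 2.8% of the family in any thymus table.

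Clone size followed the tissue and, within tumors, the table. A clonotype of at least 2 cells held 0% to 13.5% of family cells in thymus tables and 0% and 10.8% in the spleen tables. Among the tumors, mouse-160A had 84.9% (80.3 to 88.8), mouse-160B 20.5% (18.3 to 22.9) and mouse-160C 43.7% (36.6 to 50.9). The mouse-164B tumor had 59.3% (56.4 to 62.1) and the mouse-164C tumor 40.5% (38.5 to 42.5). The median of the tumors was 43.7%, and all 5 lay above every thymus and spleen table.

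Set beside all other cells of the same tumor, the family was more expanded in mouse-164B (48.5% of the others) and mouse-164C (18.8%), and less in mouse-160C (72.3%), with intervals apart. The intervals overlapped in mouse-160A, at 84.9% and 78.5%, and in mouse-160B, at 20.5% and 22.1%. The contrasts in mouse-164B and mouse-164C depended on the largest clonotypes, whereas that in mouse-160C did not. With the largest clonotype of the family and that of the other cells both left out, the values were 41.8% and 40.2% in mouse-164B and 12.96% and 12.2% in mouse-164C, with overlapping intervals. In mouse-160C they were 23.4% and 69.2%, in mouse-160B 14.9% and 20.5%, with intervals apart in both, and in mouse-160A 78.3% and 74.7%, with overlapping intervals. In mouse-164B the family and the other cells were not separate sets of clones. There 550 cells held the TRAJ45 chain described below as second TRA chain, with the same TRB chain. Most of them count among the other cells, and the effect on the contrast was not tested.

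The thymus was not free of expanded family clones. In the mouse-160B thymus 13.5% (11.2 to 16.1) of family cells belonged to clonotypes of at least 2 cells against 4.25% of the others, and in the mouse-160A thymus 11.4% (8.00 to 15.5) against 1.76%. The mouse-155A thymus had 0 of 267 such cells, which allows up to 1.12%, and its spleen 0 of 501, which allows up to 0.599%. By gene, TRAV12-1_1 had a larger share of its cells in such clonotypes than TRAV12-2 in 4 of 5 tumors, at 88.3% and 72.7% in mouse-160A, 23.9% and 11.99% in mouse-160B, 63.2% and 51.1% in mouse-164B and 49.4% and 6.92% in mouse-164C. The intervals overlapped in mouse-160A alone of these 4. In mouse-160C the order was turned, at 17.3% and 65.5%. Without the largest family clonotype of each tumor, TRAV12-1_1 was lower in mouse-164B too, at 39.1% and 51.1%, and the values were 15.4% and 6.92% in mouse-164C and 17.3% and 34.5% in mouse-160C. The largest clonotype of mouse-164B, described below, keeps too few V bases to tell Trav12-1 from Trav12-2. The order of these genes in mouse-164B with that clonotype included is therefore undetermined.

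A few clonotypes carried this expansion, and the CDR3 of the alpha chain is printed for those that led a tumor or an expanded thymus, 5′ to 3′. Capitals mark junction bases that matched neither the V nor the J germline.
mouse-164C tumor, TRAV12-1_1 with TRAJ56: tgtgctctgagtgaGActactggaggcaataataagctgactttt
mouse-164B tumor, TRAV12-1_1 with TRAJ45: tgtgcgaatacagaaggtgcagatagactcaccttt
mouse-160A tumor, TRAV12-1_1 with TRAJ13: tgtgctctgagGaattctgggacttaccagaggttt
mouse-160B tumor, TRAV12-1_1 with TRAJ49: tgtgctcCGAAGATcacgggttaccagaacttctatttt
mouse-160C tumor, TRAV12-2 with TRAJ15: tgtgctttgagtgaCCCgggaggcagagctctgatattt
mouse-160B thymus, TRAV12-1_1 with TRAJ28: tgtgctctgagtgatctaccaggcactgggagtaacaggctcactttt
mouse-160A thymus, TRAV12-2 with TRAJ58: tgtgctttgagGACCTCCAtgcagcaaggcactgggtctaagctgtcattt

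The TRAJ56 chain of the mouse-164C tumor paired with TRBV12-1 in 741 cells, or 31.6% of family cells and 5.58% (5.19 to 5.98) of all paired cells of that table. The TRAJ45 chain of the mouse-164B tumor paired with TRBV13-1_1 in 361 cells, or 30.01% of family cells and 6.13% (5.53 to 6.77) of paired cells. Its CDR3 kept only 5 germline V bases and had no junction base, the remaining 31 bases being TRAJ45. The kept bases end before position 63, so the call of this chain to TRAV12-1_1 cannot separate Trav12-1 from Trav12-2. Read by the first TRA chain, each of these clonotypes was the second largest of its table. That rank leaves out cells of the TRAJ45 clone that held its chain in second place, described below.

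The other leading clonotypes were smaller in cells. The TRAJ13 chain of the mouse-160A tumor paired with TRBV13-3 in 91 cells (30.5% of family cells), and the TRAV12-2 to TRAJ15 chain of the mouse-160C tumor with TRBV13-2 in 52 cells (26.4%). The TRAJ49 chain of the mouse-160B tumor paired with TRBV13-2 in 79 cells, or 6.62%. In thymus, the TRAJ28 chain of mouse-160B paired with TRBV12-2 in 55 cells (7.21%) and was the largest clonotype of that table. The TRAV12-2 to TRAJ58 chain of the mouse-160A thymus paired with TRBV14 in 10 cells (3.34%), a count another family clonotype of the table also had.

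The leading family clonotypes of the other 7 tables held 1 to 9 cells. In mouse-155A, thymus and spleen had none above 1 cell. The mouse-155C thymus and mouse-160C thymus were led by 4 and 3 cells with the same TRAJ45 CDR3 and TRBV13-1_1 partner as the mouse-164B tumor clone. The mouse-155C spleen was led by a TRAV12-1_1 to TRAJ28 clonotype of 7 cells, the mouse-164B thymus by a TRAJ24 clonotype of 9 cells and the mouse-164C thymus by a TRAJ24 clonotype of 2.

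The TRAJ45 clone of the mouse-164B tumor carried another alpha chain. Of 661 barcodes with the TRAJ45 chain as first TRA chain, 366 had a second one, which was TRAV3-3_1 in 361. In a further 606 barcodes the TRAJ45 chain was the second TRA chain, behind TRAV3-3_1 with TRAJ33 in 594. Counting it in either place, 911 cells of the table held it together with the same TRB chain. The rule for family members reads the first chain only, so the clone is counted there by its 661 barcodes.

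**Figure D5:**
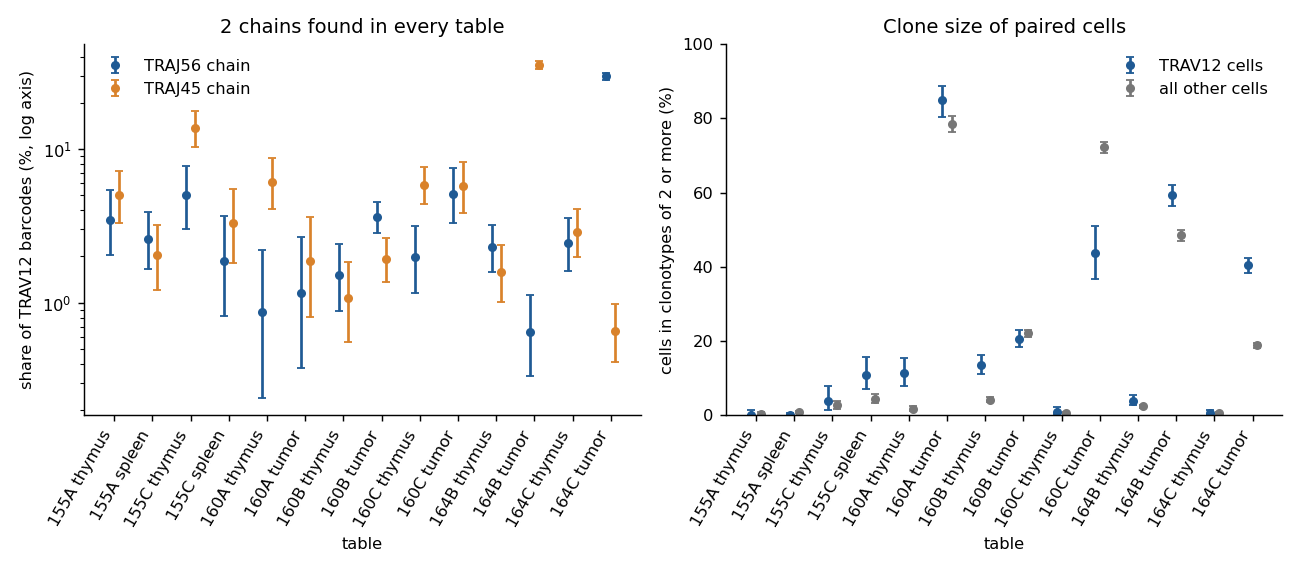
Left, share of TRAV12 barcodes (%, log axis) that carried the TRAJ56 chain (blue) or the TRAJ45 chain (orange) in each table; right, share of paired cells (%) in clonotypes of at least 2 cells for the TRAV12 family (blue) and all other cells (grey). Bars are exact 95% intervals, and the 2 chains peak at 29.8% in the mouse-164C tumor and 35.3% in the mouse-164B tumor.

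Some family clonotypes were found in both tissues of an animal. Of 170 paired clonotypes shared between the thymus and the second tissue, 36 were TRAV12, or 21.2% (15.3 to 28.1), beside 12.4% of all thymus clonotypes. The interval pools the animals, and shared clonotypes were not matched to the others by clone size, so no excess is drawn from it. Without recurring barcodes 34 of the shared clonotypes were TRAV12, or 20.7%. By animal, 16 of 70 shared clonotypes were TRAV12 in mouse-164B, 10 of 48 in mouse-160B, 4 of 15 in mouse-155C, 3 of 18 in mouse-160A and 3 of 11 in mouse-164C. None of 2 were in mouse-155A and none of 6 in mouse-160C.

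The alpha CDR3 nucleotides were readable in both tissues for 27 of the 36 clonotypes, and were the same in all 27. For none of the 36 did a cell in 1 tissue share its plate barcodes with a cell of the other tissue of that animal. Barcodes of other animals were not part of this check. In mouse-155C and mouse-160B, a shared clonotype was the TRAJ45 and TRBV13-1_1 pair that led the mouse-164B tumor, with 368 and 371 cells in other animals. Only 4 of the 36 were also seen in another animal. These shared cells made up 13.8% of family thymus cells in mouse-160B, against 2.33% of the other thymus cells, and 31.8% of family tumor cells in mouse-164C, where 1 thymus cell matched the clonotype of 741 tumor cells.

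The 7 shared clonotypes with the largest smaller frequency came from 4 animals. In mouse-160A, a TRAV12-2 to TRAJ58 chain with TRBV3 was found in 6 thymus and 5 tumor cells, and a TRAV12D-2_1 to TRAJ40 chain with TRBV14 in 2 and 3. In mouse-160B, a TRAV12-1_1 to TRAJ12 chain with TRBV14 was found in 30 and 14 cells, and the TRAJ28 chain printed above in 55 and 10. In mouse-164B, a TRAJ24 chain with TRBV14 was found in 9 and 15 cells and a TRAJ37 chain with TRBV5 in 8 and 38. In mouse-155C, a TRAV12-2 to TRAJ38 chain with TRBV1 was found in 1 thymus and 2 spleen cells. The 5 that were not yet printed and held more than 2 thymus cells or came from a TRAV12D gene read as follows, with capitals again marking junction bases.
mouse-160A, TRAV12-2 with TRAJ58: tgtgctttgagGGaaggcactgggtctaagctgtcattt
mouse-160A, TRAV12D-2_1 with TRAJ40: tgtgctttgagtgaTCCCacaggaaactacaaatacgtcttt
mouse-160B, TRAV12-1_1 with TRAJ12: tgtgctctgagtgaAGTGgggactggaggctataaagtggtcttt
mouse-164B, TRAV12-1_1 with TRAJ24: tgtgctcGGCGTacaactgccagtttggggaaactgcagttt
mouse-164B, TRAV12-1_1 with TRAJ37: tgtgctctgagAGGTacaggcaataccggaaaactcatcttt

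Across animals, 1490 of 6458 distinct family chains (23.1%) occurred in at least 2 of the 7 animals, against 19.8% of 42543 other chains. With recurring barcodes left out the shares were 19.1% and 15.5%. Widely shared chains had simple joints. Distinct nucleotide chains of CDR3s seen in 1 animal had a mean of 3.98 junction bases, those seen in 2 or 3 animals 2.76, and those seen in 4 or more 2.34. A joint without any junction base was found in 5.92%, 13.1% and 19.7% of them. Leaving out recurring barcodes kept this order of the 3 classes, with means of 3.96, 2.57 and 2.38 junction bases.

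The 5 family CDR3s that occurred in all 7 animals with the most barcodes had 0 to 5 junction bases in their leading table. The TRAJ56 and TRAJ45 chains printed for the mouse-164C and mouse-164B tumors led with 1283 and 1008 barcodes, and both occurred in all 14 tables. The TRAJ13 chain of the mouse-160A tumor followed with 178 barcodes, a TRAV12-1_1 to TRAJ45 chain of the mouse-164C tumor with 133 and the TRAJ28 chain of the mouse-160B thymus with 132, each in 12 tables. Each was concentrated in 1 table, which held 1005, 661, 135, 102 and 84 of these barcodes in the same order.

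Outside the animal of that table, the TRAJ56 chain was seen in 251 barcodes. Of these, 99.2% held a single TRA transcript and 13.9% a TRB chain, against 58.5% and 64.2% of other family barcodes outside that animal. All 227 with a readable nucleotide sequence had the same one, and 80.9% shared the later plate barcodes and sublibrary with a barcode of the chain in the mouse-164C tumor, against 2.74% of other family barcodes. The TRAJ45 chain behaved alike in its 324 barcodes outside mouse-164B. There 98.8% held a single transcript, 12.96% had a TRB chain, 99.4% had the same nucleotides and 71.9% shared plate barcodes, against 3.10% of other family barcodes. Of 42 paired cells among them, 12 carried the TRB chain of the tumor clone.

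The TRAJ28 chain of the mouse-160B thymus differed. Its 30 barcodes outside the animal held a single transcript in 70%, a TRB chain in 46.7% and 3 nucleotide sequences. Only 13.3% shared plate barcodes with its main table, against 0.238% of other family barcodes. Neither the source of the chains seen outside their main table nor its part in the values above was tested.

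The TRAJ56 and TRAJ45 chains together made up 2.58% to 18.7% of family barcodes in thymus tables (median 6.97%), 36.0% in the mouse-164B tumor and 30.4% in the mouse-164C tumor. Leaving both out lowered the TRAV12 share to 13.4% in the mouse-164B tumor and 12.1% in the mouse-164C tumor. These values lay beside 12.8% and 11.5% in the thymus of the same animals. The share of the mouse-160C tumor, in contrast, stayed low, at 6.13%.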

How the data were processed

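Receptor libraries of mouse CD8+ T cells were made by the authors with the Parse Evercode TCR kit and assembled by software of the kit's maker, whose version was not given in the sources used here (nor was its V(D)J reference). The labels name the GRCm39 genome. The deposited barcode and clonotype tables hold counts, namely TRA transcripts per barcode and cells per clonotype, pooled over 8 sublibraries. The deposited chain annotation holds the percent identity of each V segment to germline. It was available in part for 3 tables, where it covered 91.5% (mouse-160B thymus), 36.4% (mouse-164B thymus) and 29.2% (mouse-164C tumor) of family barcodes. All 7397 family clonotypes tallied from barcodes equalled the deposited counts. Every sample was unassigned because no label gives a group, and 0 value columns were left unmapped.

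Of 253531 barcodes, 229512 had no multiplet mark and were used; 3126 family barcodes with a mark were left out. No minimum was set on transcripts. Shares were computed with pandas 2.3.3 in Python 3.11.15, and exact Clopper-Pearson intervals at 95% with SciPy 1.17.1. A count of 0 was given the limit of 3 counts. TRAV genes with a mean share of at least 0.5% over both tissues of an animal were called past 1.5-fold, and TRAJ or TRBV ranges over thymus tables were compared for overlap. The share and fold functions were tested on simulated data. Germline sequences and positions came from the GRCm39 reference.

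Named were all TRAV12 genes, the 5 leading TRAJ and TRBV partners in thymus (6 TRAJ because of a tie), partners over 3 times their share elsewhere on at least 30 chains, and the leading clonotype of each table. The 7 largest clonotypes of both tissues and the 5 CDR3s in most animals were also named. Members and lists were chosen with earlier results of these data known. Alternatives changed the multiplet, transcript, second-chain, pairing, counting and clonotype rules or left out a sublibrary. Leaving out recurring barcodes, the 2 chains found in every table, TRAV11 to TRAJ18 cells or the largest clonotypes, and counting TRBV partners by clonotype, were chosen after seeing the data.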

Additional observations from a re-analysis of the deposited data

Results flagged for a closer look

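Among 22 sets of thymus or tumor tables examined for 1 value far from the others, 2 held such a value, and chance gives about 1 in 20. The largest family clonotype of the mouse-160B tumor held 6.62% of its TRAV12 cells, far below the 26.4% to 31.6% of the other 4 tumors. In the mouse-155C thymus, the TRAJ56 and TRAJ45 chains found in every table made up 18.7% of TRAV12 barcodes, against at most 8.45% in the other 6 thymus tables. That table also had the fewest TRAV12 barcodes of all tables, 359, and 21.7% of them were recurring barcodes. The part of the recurring barcodes in this value was not tested.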

How the results depend on the processing

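Of 118 alternative values, 90 stayed close to the reported one. The thymus median of the TRAV12 share (13.1%) was 11.8% with at least 2 TRA transcripts, 11.9% without the 2 chains found in every table, 14.5% by distinct chains, 11.3% weighted by transcripts and 14.1% without TRAV11 to TRAJ18 barcodes. The spleen and tumor median (14.9%) was 13.6% with at least 2 transcripts, 13.4% without the 2 chains and 13.8% weighted by transcripts. The second tissue was lower in 1 animal instead of 2 with at least 2 transcripts, without barcodes with a second chain, without recurring barcodes, without the 2 chains, weighted by transcripts and in paired barcodes, and in 4 without TRAV11 to TRAJ18 barcodes. The leading gene's median share (69.9%) was 66.7% without the 2 chains, 64.1% by distinct chains and 66.3% in paired barcodes. The tumor median of cells in clonotypes of at least 2 cells (43.7%) was 60.3% with at least 2 transcripts and 64.6% with clonotypes defined by the TRA CDR3 alone. The 5′ TRAJ share (9.02%) was 5.88% with at least 2 transcripts, 6.38% without the 2 chains and 6.96% by distinct chains. Over all animals, 38.8% of TRAV genes were past 1.5-fold, 25.2% past 2-fold and 15.6% past 1.5-fold by distinct chains. Leaving out each sublibrary in turn gave 12.96% to 13.4% and 14.7% to 15.3% for the shares, 1 to 2 animals, 69.5% to 70.4%, 40.8% to 44.1% and 8.45% to 9.40% for the values in that order, and 8.75% to 9.79% for TRBV13-2. The causes were not tested.

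Precision was limited by depth: most barcodes held 1 TRA transcript, and TRAV12D genes had few chains per table. Differences between animals cannot be told apart from differences between pools, and genotype and tumor model were not analysed here. The short V window leaves Trav12-1, Trav12-3, Trav12d-3 and Trav12n-3 unseparated.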
